A study of Caenorhabditis elegans with 2 samples.

Results

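The 635 regions described here are peaks of a ChIP-seq experiment whose summits fall inside coding exons, on chromosomes I to IV and away from gene starts. They were chosen by the authors' pooled signal value and by position. A peak of the pooled list entered when its signal value was 3.5 or more, its summit lay more than 500 bp from the start of every protein-coding gene, and the summit base was coding sequence in the Ensembl annotation of WBcel235. The pooled list held 15658 peaks, 3470 of them on chromosomes I to IV at that signal value. Of these 3470, 1065 had summits within 500 bp of a gene start, 1032 lay in introns or untranslated parts of genes, 738 lay between protein-coding genes, and the remaining 635 are the coding exon peaks.

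The experiment used whole fourth-stage (L4) larvae of Caenorhabditis elegans strain OP212, males and females pooled, with the genotype unc-119(ed3) III and the transgene ddEx58. The transgene gives the homeobox protein CEH-82, product of gene F45C12.2, a GFP and FLAG tag at its C-terminal end, and chromatin sheared by sonication was immunoprecipitated for the tagged protein and sequenced. There were 2 biological replicates of 1 group, and the control library was not analysed here. The name ddEx58 marks an extrachromosomal array while the labels speak of an insertion, which was not settled, and in pooled whole animals the tissue that a region was recovered from is not known. All comparisons are therefore descriptions of regions, with no test between conditions.

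Homeobox proteins bind DNA through a homeodomain, usually at short sequences rich in A and T that lie in promoters and enhancers. Protein-coding exons are richer in G and C than introns and intergenic DNA in this animal. A relaxed peak list, prepared for a later comparison of replicates, is meant to hold background beside bound regions.

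The coding part of the sequence within 50 bp of the summit is printed for 6 strong peaks on chromosomes II, III and IV, because they show what lies under the summits, with the summit base in capitals. Each sequence is from the RefSeq assembly WBcel235, on the strand of the host gene, and 5′ to 3′. F58G1.7 encodes an uncharacterized protein, F01D5.10 a predicted carbohydrate sulfotransferase, ubl-1 a ubiquitin-like protein fused to a ribosomal protein, zip-2 a bZIP transcription factor of the response to infection, C52D10.3 a protein with a DUF4140 domain, and F49E11.2 a protein annotated with a G-protein coupled receptor profile.
F58G1.7: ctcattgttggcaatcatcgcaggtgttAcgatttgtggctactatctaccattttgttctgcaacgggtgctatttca
F01D5.10: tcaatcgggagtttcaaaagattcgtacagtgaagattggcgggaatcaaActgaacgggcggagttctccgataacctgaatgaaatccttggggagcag
ubl-1: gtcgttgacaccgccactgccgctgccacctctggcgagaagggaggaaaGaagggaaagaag
zip-2: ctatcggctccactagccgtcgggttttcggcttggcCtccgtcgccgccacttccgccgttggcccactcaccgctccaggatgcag
C52D10.3: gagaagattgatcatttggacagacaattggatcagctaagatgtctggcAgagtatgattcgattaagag
F49E11.2: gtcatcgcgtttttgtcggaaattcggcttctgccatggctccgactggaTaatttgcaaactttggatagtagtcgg

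A pair of strong peaks in cuticle collagen genes is shown in the same way, with every in-frame glycine codon in capitals, because collagens are built of short repeats that each begin with glycine.
col-88: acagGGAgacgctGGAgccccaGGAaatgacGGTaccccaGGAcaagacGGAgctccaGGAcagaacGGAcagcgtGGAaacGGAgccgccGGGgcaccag
dpy-13: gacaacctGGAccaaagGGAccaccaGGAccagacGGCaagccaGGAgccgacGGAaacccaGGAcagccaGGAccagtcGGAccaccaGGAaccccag
The col-88 sequence holds 11 glycine codons among 33 whole codons, and that of dpy-13 holds 10 among 32. Each of the 8 sequences was searched on both strands for 5 short words. The word TAATTA is a core that many homeodomains bind, and TGATAA is a site of GATA factors. The others were GAGAGA, which factors of the GAGA type bind in flies, the E-box word CACGTG, and TGACTCA, which AP-1 factors bind. None of the 8 sequences holds any of these words.

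The pooled signal values of the coding exon peaks ran from 3.503 to 16.1, with a median of 4.33 and quartiles of 3.84 and 5.15, against a median of 2.95 over the whole pooled list. Of the 635 peaks, 448 had a value under 5, 51 reached 7 and 9 reached 10. These values chose the peaks and are given as a description. The peaks C46F11.5, gld-1 and C05C10.3 stood just inside the limit at 3.503, 3.504 and 3.504, and those in C50D2.6, T08B2.11 and let-805 just outside at 3.493, 3.486 and 3.485. At the limit of distance, the summits in pdl-1 and timm-23 lay 504 and 508 bp from the nearest start, and those near mtrf-1L and K11D2.4 were outside it at 500 and 499 bp.

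None of the 635 peaks was in the thresholded list that the authors kept, an exact upper limit of 0.579% at 95%. That list held 0.364% of the whole pooled list, and 0.836% of the 3470 peaks of chromosomes I to IV at the signal limit. That list held 57 peaks, 29 of them on chromosomes I to IV, and its lowest pooled signal value was 16.4. The highest value among the coding exon peaks, 16.1, lay just under it, so the absence and its upper limit follow from the signal values.

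The replicates differed in how many of the peaks they listed. A peak of replicate 1 overlapped 189 of the 635 by at least 1 bp (29.8%, 95% interval 26.2 to 33.5), against 21.3% of the whole pooled list. A peak of replicate 2 overlapped 373 (58.7%, 54.8 to 62.6), against 43.2% of that list. Both replicates overlapped 67 peaks (10.6%, 8.27 to 13.2), against 6.98%, and neither overlapped 140. Most of the whole list lies under the signal limit. Among all 3470 peaks of chromosomes I to IV at the limit, the shares were higher than for coding exon peaks, 32.2% for replicate 1, 64.7% for replicate 2 and 15.5% for both. The intervals are exact and cover counting error only, and the pooled list holds the reads of both replicates, so these shares are not independent of how the peaks were selected. Replicate 2 also had the longer list, 8651 peaks against 4561.

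Among peaks of chromosomes I to IV that met the same signal limit, both replicates overlapped 19.3% of those within 500 bp of a gene start, 14.1% of those in introns or untranslated parts and 16.0% of those between genes. The share for coding exon peaks was the lowest of the 4 classes. Their median signal value was also the lowest, against 4.73, 4.41 and 4.48 in those classes, and the part of signal in the difference was not tested.

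Overlap with the replicates was more frequent at higher signal values, a trend that is not independent of the replicate lists because the pooled value holds the same reads. Both replicates overlapped 9 of the 219 peaks under 4, 11 of the 229 from 4 to under 5, 25 of the 136 from 5 to under 7, and 22 of the 51 at 7 or more (43.1%, 29.3 to 57.8). No peak at 7 or more was without a replicate peak, and the highest value among the 140 with none was 6.68, in ints-13, which encodes a subunit of the Integrator complex.

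**Figure D1:**
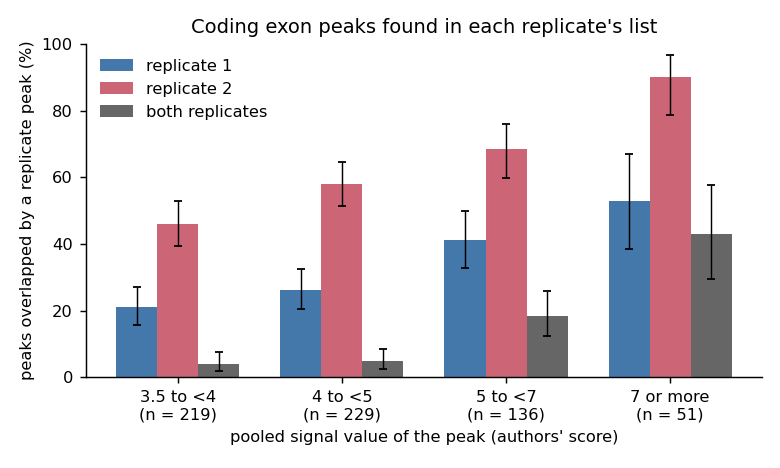
Share of coding exon peaks (vertical axis, %) that overlap a peak of replicate 1, of replicate 2 or of both, by pooled signal value (horizontal axis), with exact 95% intervals as bars. In every signal class replicate 2 overlapped more peaks than replicate 1, and the share in both was 4.11% in the lowest class and 43.1% in the highest. The pooled value and the replicate lists come from the same reads.

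Across the 67 peaks where both replicates had a peak, Pearson's r of their own signal values was 0.195 and Spearman's rho 0.118. No p-value is given because regions are not independent replicates. The peaks were chosen by a pooled signal that holds the reads of both replicates, which limits these coefficients as a measure of agreement. Overlapping pairs, such as those in rol-1 and mak-1, also count the same replicate peaks more than once. At these 67 the replicate summit lay at a median of 91 bp from the pooled summit for replicate 1 and of 46 bp for replicate 2, and both were within 100 bp at 29 peaks (4.57% of the 635). Of the coding exon peaks, 8 overlapped a peak among the 1000 strongest of each replicate (1.26% of the 635). These lay in C52D10.3, ubl-1, anmt-1, prg-1, C15F1.5, bli-2, srlf-1 and pdl-1. C15F1.5 and srlf-1 are named for that count, after their values were seen. The matching share of other peaks is not given here, so the 1.26% has no background.

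The strongest coding exon peak lay in exon 6 of 7 coding exons of F58G1.7, at II:12944542-12944911 (ce11), with a pooled signal value of 16.1. Replicate 2 had a peak there of signal value 14.5 and replicate 1 had none. Its summit was 76 bp from sup-6, a gene of a small nuclear RNA. The peak of C52D10.3, at IV:17182347-17182716, was second with 12.4 and was overlapped in both replicates, at 8.95 in replicate 1 (summit 185 bp away) and 13.03 in replicate 2 (71 bp). The protein-coding start nearest to it, 1197 bp away, was that of the collagen gene col-138.

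Small structured RNA genes lay near several of the other strong peaks as well. The peak in tmem-107, a gene of the ciliary transition zone, had a value of 11.9, was found in replicate 2 at 7.68 but not in replicate 1, and had its summit 254 bp from the snoRNA gene F39B2.14. In ubl-1, at III:3068961-3069330, the pooled value was 11.7 and the replicates gave 3.64 and 8.44, with the snoRNA gene H06I04.8 263 bp away. In F01D5.10, at II:14018050-14018419, it was 11.3, the replicates gave 3.09, with its summit 280 bp away, and 7.60, and the snoRNA gene F01D5.12 was 119 bp away. Small nucleolar RNAs guide the modification of ribosomal RNA, and in this animal many lie in introns or close to other genes.

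In zip-2 a peak at III:834373-834742 had a value of 10.9, with 2.23 and 9.25 in the replicates, and its summit was 253 bp from the start of an alternative transcript although it was 1576 bp from the nearest gene start. The nicotinamide N-methyltransferase gene anmt-1 followed with 10.7 and replicate values of 5.19 and 5.07. In C26D10.3, which encodes a predicted oxidoreductase, the value was also 10.7, with 6.67 in replicate 1 and no peak in replicate 2. The peak in K09F6.10, annotated as a DNA polymerase, had 10.2, with 2.48 and 8.42 in the replicates.

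The next 16 peaks by signal value ran from 9.85 down to 8.48. They include act-5, the actin of intestinal microvilli, at 9.85, and cbp-1, a histone acetyltransferase and coactivator, at 9.01. They also include let-711, a subunit of the CCR4-NOT complex that removes poly(A) tails, at 9.22, klp-7, a kinesin that takes microtubules apart, at 9.19, and ncr-2, a cholesterol transporter of the Niemann-Pick C1 type, at 8.63. Other hosts in this range were R03D7.2, F31E3.12, pqn-42, E01G4.6, F25B5.5, rol-1, F49E11.2, ttr-51, tyr-2, ZK180.5 and col-88. Among these 16, replicate 1 had a peak at R03D7.2, F31E3.12, pqn-42, let-711, rol-1 and tyr-2, and replicate 2 had one at all except pqn-42 and tyr-2.

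The 635 peaks lay in 571 genes, which is 5.15% of the 11086 genes on chromosomes I to IV with coding sequence more than 500 bp from every gene start. That coding sequence, called eligible here, came to 12257 kb, and held 51.8 peaks per Mb. Chromosome III held 185 peaks, 64.9 per Mb, against 49.4 on I, 49.5 on II and 44.5 on IV. Of the host genes 517 had 1 peak, 44 had 2 and 10 had 3. Host genes were longer than others, with a median of 1440 bp of eligible coding sequence against 789 bp over all 11086 genes.

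The 10 genes with 3 peaks were tra-1, vhp-1, abt-2, tln-1, rol-1, lrp-1, epc-1, eel-1, mak-1 and cdh-12. Some have very long coding sequences, 14259 bp in lrp-1, a lipoprotein receptor of the epidermis, and 12555 bp in eel-1, a HECT ubiquitin ligase, but those of rol-1 and mak-1, a kinase, are 1374 and 1563 bp. The peaks of tra-1, the zinc finger factor that directs female development, had values of 6.23, 4.11 and 3.83. Those of rol-1, a cuticle collagen, had 9.19, 7.75 and 4.98. The 2 stronger ones overlap and were matched by the same replicate peaks, of 2.61 and 8.05. The peaks of mak-1, epc-1 and tln-1 include such an overlapping pair too, and in all 28 of the 635 peaks overlapped another.

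Genes of the cuticle collagens held 24 of the peaks. These proteins form the exoskeleton that the larva renews at each moult, and L4 larvae make the adult cuticle. Peaks lay in 23 of the 113 collagen genes with eligible sequence (20.4%, 13.4 to 29.0), against 5.15% of all genes, at 319 peaks per Mb against 51.8. Beyond 1000 bp from gene starts, collagen genes held 6 of 480 coding exon peaks (1.25%, against 3.78% of the 635). The share of coding bases in collagen genes beyond 1000 bp was not counted, so the 1.25% has no matching background. The collagen genes with the highest values were col-88 at 8.48, dpy-13 and col-124 at 7.88, and col-103 at 7.66. Genes for the shape of the body and cuticle were among them, with dpy-13, rol-8 (6.25), bli-2 (5.49) and bli-6 (5.47).

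Most collagen peaks were found in 1 replicate only, as were most of the 635 (122 in replicate 1 only and 306 in replicate 2 only). Replicate 1 overlapped 10 of the 24, replicate 2 overlapped 17 and both overlapped 5. Over all 635 the shares were 29.8%, 58.7% and 10.6%, or 67 peaks in both. In col-103 replicate 1 gave 7.42 and replicate 2 had no peak, while in col-88, at III:41464-41833, replicate 2 gave 4.49 and replicate 1 had none. The stronger dpy-13 peak was overlapped by peaks of 3.12 and 9.69, but their summits lay 277 and 315 bp from its own. For bli-2 the values were 4.96 and 9.09, with summits 148 and 74 bp away. Of the 5 collagen peaks that both replicates overlapped, 1, in col-111, had both replicate summits within 100 bp. None of the 24 had a near-identical copy elsewhere in the genome. Soft-masked repeat sequence held 8 of the 24 summits, against 40 of all 635 (6.30%) and 7.52% of eligible coding bases. The masked share of eligible bases in collagen genes alone is not given here. The list was made from gene symbols. Of the 102 eligible genes whose RefSeq product is named a cuticle collagen, 25 held 28 peaks, among them rol-1 and ram-2, which the symbol list leaves out.

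Collagen gene starts were also the nearest starts of 28 peaks (4.41%, 2.95 to 6.31), against 1.04% of all eligible coding bases. In 6 of these the host was another gene: C52D10.3 beside col-138, ncr-2 beside col-91, ugt-65 beside col-130, M18.3 beside col-129, and 2 peaks of dhc-4 beside col-92. M18.3 and dhc-4 are named after their values were seen.

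Ribosomal protein genes are short, and 4 of 44 with eligible sequence held a peak (9.09%, 2.53 to 21.7), an interval that holds the 5.15% of all genes. The density of 460 per Mb rests on these 4 peaks in only 8.70 kb. Their values were 8.17 in rps-2, 6.43 in rpl-19, 5.12 in rps-7 and 5.08 in rps-13, and all 4 had a peak in replicate 2 while rpl-19 and rps-7 also had one in replicate 1. Translation factors held peaks in 3 of 34 genes, the highest in eef-1B.2 at 5.35, which neither replicate listed. The ubiquitin list, with cul-2, ufd-2 and ubc-3 beside ubl-1, had 4 of 36.

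Genes of the muscle sarcomere and of its attachment to the cuticle held peaks in 13 of 41 genes (31.7%), with 18 peaks. These genes are long, and the density was 84.6 per Mb against 51.8 over all genes. The values were moderate, with mup-4, a protein of the fibrous organelles that tie muscle to cuticle, at 5.66, tln-1 (talin) at 4.88, vab-10 (a spectraplakin) at 4.61 and unc-22 (twitchin) at 4.59. Both replicates overlapped 1 of the 18, in unc-89, the obscurin homologue, against 67 of all 635 (10.6%). Chromatin genes held peaks in 10 of 81, with cbp-1 at 9.01, epc-1 at 6.22, and pbrm-1 and swsn-9, subunits of the SWI/SNF complex, at 5.94 and 5.48. The list of RNA polymerase II and splicing had 8 of 87, led by mdt-4 at 7.84, rsp-8 at 7.15, ints-13 at 6.68 and emb-5 at 5.24.

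Chaperones held peaks in 5 of 45 genes, at 103 per Mb, with sip-1, a small heat shock protein, at 8.37 and dnj-5 at 6.37. The pharynx list had 6 of 44, at 105 per Mb, with pqn-42 at 9.41, pqn-59 at 7.28 and abu-13 at 5.198. That list was made from gene symbols, and whether its genes, pqn-59 among them, are pharyngeal was not checked. Germline genes had 5 of 72, with the Argonaute gene prg-1 at 7.92 and the helicase gene glh-1 at 5.67, which has a near-identical copy elsewhere. Neuronal genes had 7 of 106, led by ser-3 at 4.86 and egl-21 at 4.64, and nuclear hormone receptors 5 of 79, at 60.3 per Mb, led by nhr-66 at 4.71 and nhr-31 at 4.63. The list of collagen modification and basement membrane had 3 of 12, with the prolyl hydroxylase subunits phy-2 at 6.13 and dpy-18 at 3.85 and perlecan (unc-52) at 3.9998.

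Among homeobox genes, the family of CEH-82 itself, 1 of 58 held a peak, ceh-48, a factor of the ONECUT class, at 4.12 with 3.19 in replicate 2 only. Of other large families, peaks lay in 3 of 382 chemoreceptor genes, 5 of 312 genes of the F-box, MATH and BTB families and 4 of 151 C-type lectins, where the interval (0.726 to 6.64%) holds the share of all genes. Their densities were 11.4, 24.4 and 32.6 per Mb. Actin and tubulin genes had 2 of 12 (act-5 and tba-2, the latter at 3.64), yolk and intestine genes 2 of 24 (act-5 again and spp-28 at 7.04), and glycolysis genes 2 of 17, led by aldo-1 at 5.57. Detoxification genes had 3 of 95, led by ugt-65 at 8.30 and ugt-44 at 7.42, mitochondrial energy genes 1 of 37, idh-1 at 4.27, and the major sperm protein list 1 of 28, gsp-3 at 3.55. This last list was made from gene symbols, and gsp-3 does not carry the symbol msp of the major sperm protein genes. The proteasome list had 0 of 28 and the histone list 0 of 7. For most lists the exact interval of the share of genes holds the 5.15% of all genes. It lies above that share for cuticle collagen, muscle, pharynx (from 5.17%), chromatin, and collagen modification and basement membrane genes. It lies below that share for chemoreceptor genes and for the F-box, MATH and BTB families. For the pharynx list the margin is small and rests on membership by gene symbol. These intervals cover counting error only and take no account of gene length. Genes in none of the 25 lists held 508 peaks, at 49.5 per Mb.

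**Figure D2:**
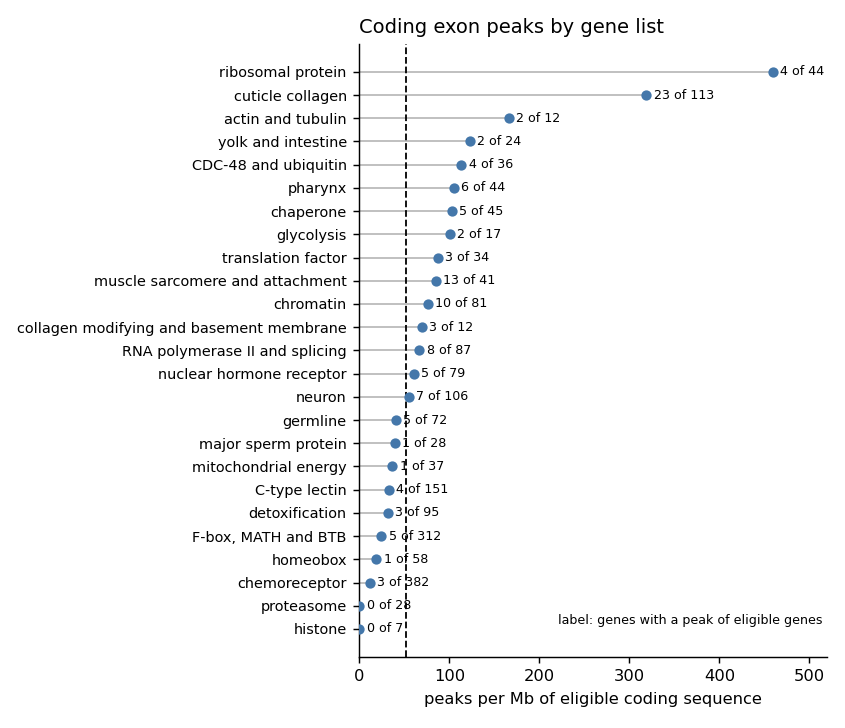
Coding exon peaks per Mb of eligible coding sequence (horizontal axis) for each gene list (vertical axis), with the number of genes holding a peak and of eligible genes beside each point, and the value over all genes, 51.8, as a dashed line. Ribosomal protein and collagen genes stand farthest to the right at 460 and 319, and chemoreceptor genes, the proteasome and histones farthest to the left. The ribosomal protein value rests on 4 peaks in 8.70 kb, and intervals are not drawn.

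The summits had a higher median G+C share than eligible coding sequence as a whole. The median G+C share within 50 bp was 43.6% (quartiles 39.6 and 49.5), against 41.6% (36.6 and 46.5) over all eligible coding bases. The other peak classes had medians of 40.6% near gene starts, 36.6% in introns or untranslated parts and 38.6% between genes. Coding exons differ from those classes in composition over the whole genome, so the eligible coding bases are the closer comparison. Within the coding exon peaks, mean G+C was 44.6% at the summit (SD 7.54, n = 635) and 39.3% (SD 9.88) and 39.5% (SD 9.18) at 200 to 300 bp to the left and right. The summits did not stand above their own host genes, whose coding sequence had a median of 44.4%, and the median difference from the host was -0.41 percentage points.

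**Figure D3:**
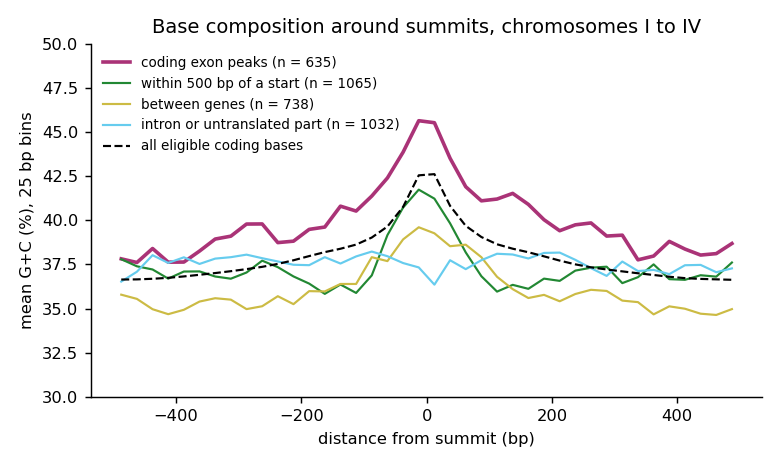
Mean G+C share (vertical axis, %, in 25 bp bins) by distance from the summit (horizontal axis, bp) for the 4 classes of peaks, with the same profile around all eligible coding bases as a dashed line. The coding exon peaks lie above the dashed line at all distances plotted, and both profiles rise towards the centre, where a coding base is fixed by the choice of position.

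The density of coding exon peaks was higher in coding sequence of higher G+C. It was 27.3 per Mb of eligible bases with under 35% G+C within 50 bp, 54.03 from 40 to 45%, 88.6 from 50 to 55% and 249 (162 to 364) at 60% or more. Of the 635 peaks, 58 had 55% or more (9.13%), against 3.49% of eligible bases. Collagen genes supplied 20 of these 58. At 55% or more, collagen genes held 477 peaks per Mb (292 to 737) and other genes 98.5 (69.7 to 135). Under 55% the values were 120 (32.6 to 307), from 4 peaks, and 48.6, which that interval holds. All 4 were at 45% or more, and 14.3 of the 33.4 kb of eligible collagen sequence under 55% were at 50 to 55%, against 968 of 11796 kb in other genes. Composition also differed at 55% or more, where 24.6 of 41.9 kb in collagen genes were at 60% or more, against 79.95 of 386 kb. At 60% or more the densities were 488 (252 to 852) in collagen genes and 175 (95.7 to 294) in other genes, with overlapping intervals.

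**Figure D4:**
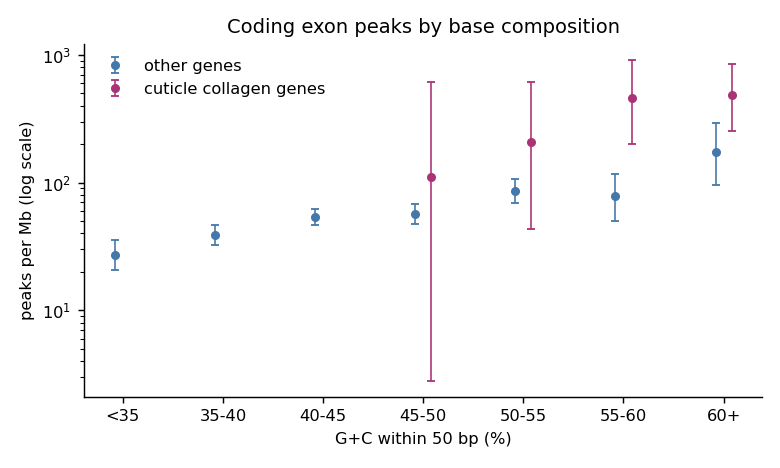
Coding exon peaks per Mb (vertical axis, log scale) by G+C share within 50 bp (horizontal axis, %) for collagen genes and other genes, with exact Poisson 95% intervals that cover counting error only and classes without a peak left out. The values for other genes run from 27.4 under 35% to 175 at 60% or more, and those of collagen genes lie above them in each class shown, with overlapping intervals in all classes except 55 to 60%.

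Most collagen peaks lay in coding sequence rich in glycine codons, like the printed parts of col-88 and dpy-13. Glycine codons made up a median of 33.3% of the whole codons within 50 bp of the 24 summits, with a range of 15.6 to 36.4%, and 19 of the 24 had at least 30%. Around all eligible bases of the 113 collagen genes the median was 27.3% (quartiles 17.2 and 33.3), and 47.5% of these bases had at least 30%, against 79.2% of the 24 summits. The lowest share, 15.6%, was in col-74. Outside the list, 609 peaks had at least 10 whole codons there, with a median of 4.76%, and 6 reached 30%.

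Within genes, summits lay towards the 3′ end of the coding sequence. With the coding sequence cut into 5 equal parts from its first to its last base, part 5 held 27.1% of them against 22.9% of eligible coding bases, and part 4 held 26.9% against 24.1%. Parts 2 and 3 held 16.7% and 19.5% against 19.9% and 23.3%. Part 1, which the 500 bp limit leaves thin, held 9.76% against 9.82%. The last coding exon held 146 summits, 23.0% against 15.6%, and 156 summits (24.6%, 21.3 to 28.1) lay within 500 bp of the end of the host gene against 17.8%. The median length of the exon was 324 bp against 291 bp.

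**Figure D5:**
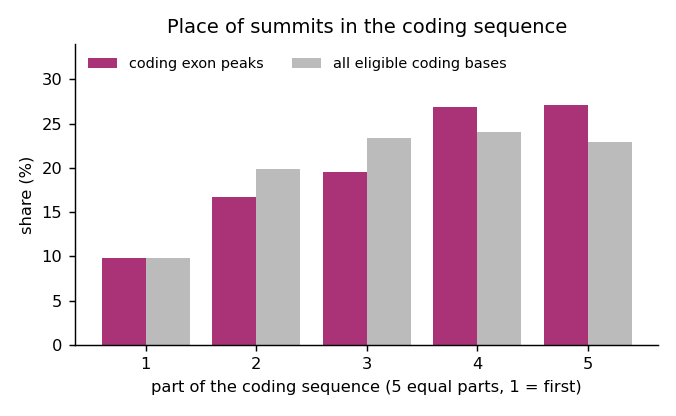
Share of summits (vertical axis, %) in each of 5 equal parts of the host gene's coding sequence (horizontal axis, from its first base to its last), beside that of all eligible coding bases. Summits exceed the eligible bases in parts 4 and 5, by 27.1% to 22.9% in part 5, and fall below them in parts 2 and 3.

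Other starts of transcription lay near some summits, which the choice of peaks had not used. The start of an alternative transcript was within 500 bp of 68 summits (10.7%, 8.41 to 13.4) against 7.42% of eligible bases. A small structured RNA gene was within 500 bp of 20 (3.15%, 1.93 to 4.82) against 1.03%. These were 12 snoRNA genes, 4 tRNA genes, 3 snRNA genes and 1 miRNA gene. Soft-masked repeats held 40 summits (6.30%, 4.54 to 8.48), 8 of them in collagen genes, and that interval holds the 7.52% of eligible bases. A further check found that 7 peaks had a second copy of at least 90% identity over at least 80 bp, in glh-1, math-4, ikke-1, clec-151, ZK507.1, skr-1 and F57B9.3, some of them named after their values were seen. Where such copies exist, reads cannot be placed with certainty. In the other classes of peaks, which lie mostly in noncoding DNA, 26.5 to 40.7% were masked or copied, against 7.24% here.

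The 5 words were searched at all summits in the same way. TAATTA, on either strand within 50 bp, was at 11 summits (1.73%) against 2.09% of eligible coding bases and 3.92% of all nuclear pooled peaks. TGATAA was at 49 (7.72%) against 9.10% and 8.66%, GAGAGA at 36 (5.67%) against 5.54% and 8.72%, CACGTG at 24 (3.78%) against 2.86% and 2.12%, and TGACTCA at 3 (0.472%) against 0.892% and 0.882%. The exact intervals of all 5 words hold the shares of eligible bases: TAATTA (0.868 to 3.08%), TGATAA (5.76 to 10.1%), GAGAGA (4.002 to 7.76%), CACGTG (2.44 to 5.57%) and TGACTCA (0.0975 to 1.37%). A match is not a bound site, and the sequence that CEH-82 prefers was not derived here.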

How the data were processed

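Peak lists on ce11 were used as the authors deposited them: relaxed lists for each replicate, a pooled list, and a thresholded list kept after an irreproducible discovery rate procedure. The aligner, caller, versions and threshold were not given in the sources used here. Each peak's signal value (column 7) is a score that the authors' caller wrote, on an unstated scale, and ranks peaks within 1 list only. The −log10 q-value deposited by the authors had the same ceiling for 309 of the 635 peaks and was not used for ranking. Depth per sample is unknown. Peaks were 370 bp wide in nearly all of the pooled list, 470 bp in replicate 1 and 416 bp in most of replicate 2.

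Genes came from Ensembl release 115, and sequence and product names from RefSeq WBcel235. Eligible coding bases were all coding bases of chromosomes I to IV more than 500 bp from gene starts. Copies were searched with blastn 2.17.0. Other steps used Python 3.11.15, pandas 2.3.3 and scipy 1.17.1, and classes and overlaps were tested on simulated peaks. The members, gene lists and comparisons were chosen with earlier results of these data known, so no test was made. The glycine codon counts, the collagen count by product name and the distances between summits in both replicates were added after the data were seen. Hosts named are those of the 25 peaks of highest signal, genes with 3 or more peaks, up to 4 per list, and peaks at the limits. Lists on ce10 were not used.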

Additional observations from a re-analysis of the deposited data

How the results depend on the processing

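With 1 group, a relaxed list and unknown depth, these values describe where peaks lie and cannot separate bound regions from background. The number of peaks was 187 at a signal limit of 5 and 9 at a limit of 10, and the same rule gave 95 to 287 peaks on the list of a single replicate. The share found in both replicates was 8.18%, 25.1% and 66.7% at signal limits of 3, 5 and 10, and 8.13% beyond 1000 bp from gene starts. It was 7.72% when at least 50% of the peak had to be covered, 4.57% for summits within 100 bp and 1.26% for the 1000 strongest peaks of each replicate. On the single replicate lists it was 10.1 to 29.5%. The masked or copied share was 11.1% at a signal limit of 10, 13.5% with copies of 80% identity over 50 bp, and 5.26 to 9.06% on the single replicate lists. The shares in collagen genes and near small RNA genes were varied after seeing the data: the first was 6.42% at a signal limit of 5, 1.25% beyond 1000 bp and 4.53 to 6.32% on the single replicate lists, and the second 6.42% at 5 and 3.14 to 6.32% on those lists. The cause of these shifts was not tested, and the share of coding bases in collagen genes beyond 1000 bp was not counted. The median G+C share moved by less than 1 SD (7.54) under all 13 alternatives, but that limit is wider than the difference from eligible bases (43.6 against 41.6%). It was 43.6 to 44.6% where the 50 bp window was kept, 45.1% within 25 bp and 41.5% within 150 bp. The share of eligible bases was not recomputed for those other windows. The annotation marks no canonical transcripts, so the longest coding transcript stood in for them. No paired analysis was possible because there is 1 group only and no result comes from a test.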

Other observations

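The same rule applied to the list of each replicate gave 95 peaks in 90 genes for replicate 1 and 287 peaks in 276 genes for replicate 2. Of the 90 genes, 53 (58.9%) also held a pooled coding exon peak, which is 9.28% of the 571 host genes. Of the 276 genes, 168 (60.9%) did, which is 29.4% of the host genes. Collagen genes held 6 of the 95 peaks and 13 of the 287. The strongest coding exon peaks were those of C52D10.3, col-103, F31E3.12 and tceb-3 in replicate 1, and those of dos-3, zip-2 and bli-2 in replicate 2. The genes tceb-3 and dos-3 were named after their values were seen. The pooled list holds the reads of both replicates, so these shares do not compare independent measurements.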
